A study of Mus musculus with 4 samples.

Results

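The genes described here are 10 that load peptide onto MHC class I molecules or switch on that machinery: the light chain B2m, the transporter subunits Tap1 and Tap2, the peptide editors Tapbp and Tapbpl, the trimming enzyme Erap1, the chaperones Calr, Canx and Pdia3, and the transactivator Nlrc5. They were taken by name from a RefSeq gene table, and all 10 had a probe on the arrays, among 20144 genes with a named probe. Nlrc5 had 2 probes and each of the others 1, which makes 11 probes, and all 11 were well above background on every array.

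RNA came from 2 mouse tumor cell lines after 24 h in culture, and each of the 4 groups held 1 Agilent array with a single Cy3 colour. AB1-HA is a mesothelioma line from BALB/c mice made to express the hemagglutinin of influenza virus, a model antigen. LLC, labelled 3LL in its sample titles, is a lung carcinoma line from C57BL6 mice. Each line received either vehicle or interferon gamma (IFN-γ), at a dose that the labels do not give, and the labels of a line's 2 groups differ in this treatment alone. By its title the series sought a regulator that restrains IFN-γ-inducible factors in tumor cells. With 1 array a group, no difference below has a replicate check, no test was run, and "called" means at least 2-fold apart. Line and mouse strain cannot be told apart, and the strains carry different H2 haplotypes, the region in which Tap1, Tap2 and Tapbp lie.

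MHC class I molecules show peptides from inside the cell to CD8 T cells. The proteasome cuts proteins, Tap1 and Tap2 together carry the fragments into the endoplasmic reticulum, Erap1 trims them, and a loading complex of Tapbp (tapasin), Calr (calreticulin) and Pdia3 (ERp57) holds the heavy chain and B2m open until a peptide fits. IFN-γ is the cytokine best known for raising this pathway, directly through interferon response elements and through Nlrc5, a nuclear NLR protein that acts at a conserved module of X and Y boxes in class I promoters. Loss of parts of this machinery is a known way for tumors to become less visible to T cells.

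On each array, 57.5% to 58.2% of 39429 gene probes were well above background and no spot was saturated. Signals are the scanner's background-subtracted intensities, and each difference is on the log2 scale after dividing by the array's 75th percentile (1380, 1419, 1598 and 1400 intensity units for AB1-HA vehicle, AB1-HA IFN-γ, LLC vehicle and LLC IFN-γ). Repeat spots of a probe gave a median SD of the difference of 0.062 in AB1-HA and 0.041 in LLC, which covers spot noise within a slide and not culture or labelling. Of the mesothelial markers, 4 or 5 of 11 were well above background on each array, with Wt1, Upk3b, Upk1b, Lrrn4, Calb2 and Gpm6a on none. Between the vehicle arrays the detected ones went both ways: Msln (378-fold), Pdpn (at least 1485-fold) and Krt19 (3.22-fold) were higher in AB1-HA, and Krt8 (172-fold) and Krt18 (485-fold) in LLC. Of the lung epithelial markers, 2 or 3 of 10 were well above background, and Sftpa1, Sftpb, Sftpc, Nkx2-1, Epcam, Cdh1 and Foxj1 were on no array. Among leukocyte markers, 4 of 7 were above background on every array with a summed signal of 4201 to 5107 intensity units, and Ptprc and Adgre1 were among those on none.

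The bases before the start of each gene are shown first for 4 members, because their IFN-γ response spans the range seen here: Tap1 among the strongest, Erap1, B2m with a moderate response, and Canx with none past 2-fold. The sequences are RefSeq's on build GRCm38.p6, the 250 bases before the annotated start, 5′ to 3′ on the gene's strand. Capitals mark matches, on either strand, to an interferon response element written GAAANNGAA, a CCAAT box (bound by NF-Y, the Y box), or the cAMP response half-site TGACG (a core of the X2 box). The gamma-activated site TTCNNNGAA was searched as well and had no match in these 4.
B2m, chr2:122147437-122147686, plus strand: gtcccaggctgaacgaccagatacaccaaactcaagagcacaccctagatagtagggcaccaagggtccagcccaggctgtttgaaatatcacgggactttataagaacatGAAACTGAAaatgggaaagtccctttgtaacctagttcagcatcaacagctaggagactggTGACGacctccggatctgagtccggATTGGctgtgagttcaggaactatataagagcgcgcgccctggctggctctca
Tap1, chr17:34187306-34187555, plus strand: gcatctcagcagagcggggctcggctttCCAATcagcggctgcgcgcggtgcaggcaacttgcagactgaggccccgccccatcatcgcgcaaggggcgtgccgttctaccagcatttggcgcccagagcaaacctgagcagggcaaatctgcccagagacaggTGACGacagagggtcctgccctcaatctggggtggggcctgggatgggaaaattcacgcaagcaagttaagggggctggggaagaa
Erap1, chr13:74639603-74639852, plus strand: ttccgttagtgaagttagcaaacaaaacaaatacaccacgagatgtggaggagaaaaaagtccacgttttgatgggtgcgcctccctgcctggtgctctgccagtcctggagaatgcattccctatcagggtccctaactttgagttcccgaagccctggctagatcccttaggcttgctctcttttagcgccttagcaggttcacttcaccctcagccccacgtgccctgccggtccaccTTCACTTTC
Canx, chr11:50325674-50325923, minus strand: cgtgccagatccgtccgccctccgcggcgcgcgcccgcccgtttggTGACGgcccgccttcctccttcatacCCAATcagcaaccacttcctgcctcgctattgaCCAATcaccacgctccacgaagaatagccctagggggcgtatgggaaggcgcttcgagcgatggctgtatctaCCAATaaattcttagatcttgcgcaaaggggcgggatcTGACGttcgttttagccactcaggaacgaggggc

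Of the 10 members, 7 had such a window in the RefSeq table; Tap2, Tapbpl and Nlrc5 had none. The B2m window held an interferon response element 139 bases before the start, a TGACG half-site 78 bases before it, and a CCAAT box on the other strand 53 bases before it, with 20 bases between the half-site and the box. The Erap1 window held a response element on the other strand that ends at the base before the start. Tap1 had a CCAAT box 222 bases and a TGACG half-site 86 bases before its start. Its start lies 226 bases from that of the immunoproteasome subunit gene Psmb9 on the opposite strand, so most of the printed bases lie between the 2 starts and the first few lie past that of Psmb9. The Canx window held 3 CCAAT boxes and 2 half-sites. Neither it nor the windows of the responding genes Tap1 and Tapbp held a response element.

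Over the 7 windows, the response element matched in 2, CCAAT in 6, TGACG in 4 and the gamma-activated site in 0. Among all 32851 windows of the same length, 7.13%, 33.8%, 17.8% and 7.02% held them. CCAAT was present in the windows of Calr, Canx and Pdia3, which stayed within 2-fold under IFN-γ, as well as in those of B2m, Tap1 and Tapbp. A match describes letters in this window and not the binding of a factor.

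**Figure D1:**
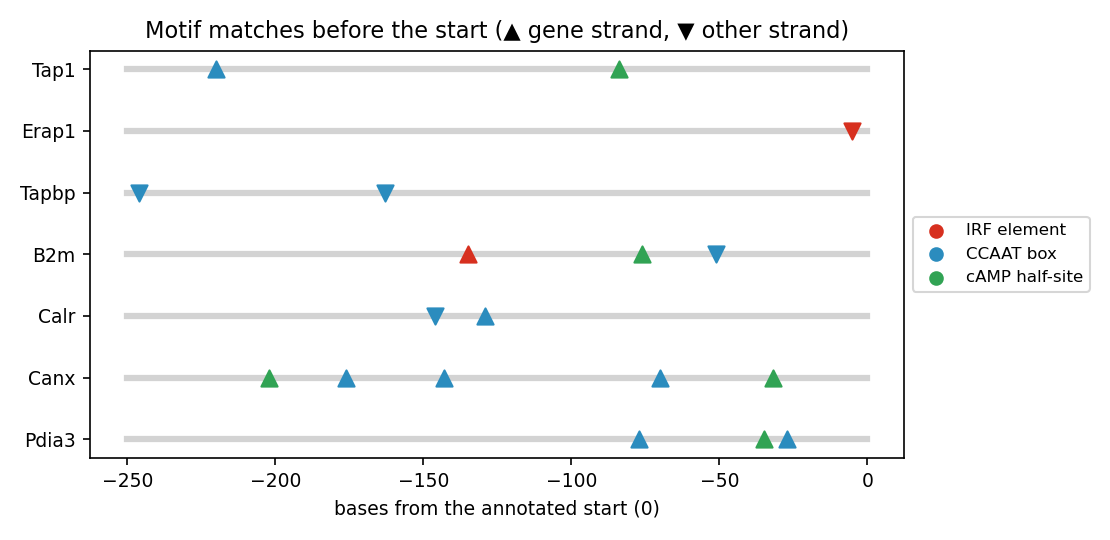
Positions of motif matches in the 250 bases before the annotated start of the 7 members with a RefSeq window; the horizontal axis is the distance from the start in bases, and triangles point up on the gene's strand and down on the other. Interferon response elements sit 139 bases before the start of B2m and next to the start of Erap1, and CCAAT boxes occur in 6 of the 7 windows.

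After IFN-γ, 7 of the 10 genes were at least 2-fold higher in AB1-HA and the same 7 were in LLC: Nlrc5, Tap1, Tap2, Erap1, Tapbp, Tapbpl and B2m. Among all genes, 2.97% were called higher in AB1-HA (394 of 13255) and 3.68% in LLC (494 of 13426). The members' median was 3.24 on the log2 scale in AB1-HA and 2.70 in LLC, against −0.08 and −0.06 over all genes. The general folding proteins Calr, Canx and Pdia3 stayed within 2-fold in both lines, and no member was called lower.

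Nlrc5, the class I transactivator, had the largest response of the 10 in AB1-HA. Its brighter probe read 216 intensity units with vehicle and 11011 with IFN-γ in AB1-HA, and 672 and 13334 in LLC. Both treated arrays were far above both vehicle arrays, and the vehicle array of AB1-HA was the lowest. The difference was 5.63 (49.5-fold) in AB1-HA, rank 30 of 13255 from the highest, and 4.50 in LLC, rank 64 of 13426.

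The dimmer Nlrc5 probe read 20.6 and 208 in AB1-HA and 12.2 and 52.6 in LLC. It gave the same direction with smaller differences, 3.30 in AB1-HA and 2.30 in LLC. On this probe the LLC arrays were below the AB1-HA array of the same treatment, the reverse of the brighter probe. The scanner's error model put the vehicle signals of the dimmer probe at 17.5% (AB1-HA) and 28.7% (LLC) of their value, against about 10% for the brighter one. Under normexp background correction with quantile normalization its LLC response was 0.04, so its call in LLC ended there; the cause was not tested. Which transcripts each probe detects was not tested.

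Tap1 and Tap2 encode the 2 subunits of the peptide transporter. Tap1 read 256 with vehicle and 4894 with IFN-γ in AB1-HA, and 78.6 and 1726 in LLC. The treated arrays did not overlap the vehicle arrays, and in each treatment LLC was the lower line. The differences were 4.22 (18.6-fold) in AB1-HA and 4.65 (25.1-fold) in LLC, above the 4.50 of Nlrc5 there. Under normexp Tap1 dropped to 3.38 in LLC, below the 4.36 of Nlrc5. The Tap1 probe was spotted 10 times on each array: spot signals ran from 246 to 280, 4675 to 5136, 71.6 to 89.7 and 1593 to 1816 in the same order of arrays. The SD over spots of the difference was 0.046 in AB1-HA and 0.085 in LLC, so no spot of a treated array approached a vehicle spot.

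Tap2 read 10788 and 66420 in AB1-HA and 6472 and 32142 in LLC. It kept the order of arrays seen for Tap1, but with a smaller response of 2.58 (5.99-fold) and 2.50 (5.67-fold). The 2 transporter genes lie side by side with the immunoproteasome genes on chromosome 17, in the order Psmb9, Tap1, Psmb8, Tap2. All 4 were called higher in both lines: Psmb9 by 6.09 and 6.55, and Psmb8 by 5.10 and 6.35. Within this run of genes the response of Tap2 was the smallest in each line.

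Erap1, the aminopeptidase that trims peptides to fit the class I groove, read 29.1 and 465 in AB1-HA and 77.9 and 510.02 in LLC. The treated arrays of the lines were close together while the vehicle arrays were not. The response was 3.96 (15.5-fold) in AB1-HA and 2.90 (7.47-fold) in LLC. Its vehicle signals are low, with a scanner error of 13.8% in AB1-HA and 10.3% in LLC, and under normexp the responses were 1.86 and 1.71, still past 2-fold.

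Tapbp (tapasin) bridges the transporter and the empty class I molecule, and Tapbpl (TAPBPR) is a related peptide editor that works outside the transporter complex. Tapbp read 2300.5 and 35186 in AB1-HA and 2683 and 26620.5 in LLC. Its vehicle arrays were level after scaling, and its response was 3.89 (14.9-fold) in AB1-HA and 3.50 (11.3-fold) in LLC. Tapbpl read 355 and 7096 in AB1-HA and 149.7 and 1980 in LLC. LLC was the lower line in both treatments, and the response was 4.28 (19.4-fold) in AB1-HA and 3.92 (15.1-fold) in LLC. In AB1-HA the response of Tapbpl was second to that of Nlrc5 among the 10.

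B2m, the light chain that every classical class I molecule needs, read 66797 with vehicle and 212131 with IFN-γ in AB1-HA, and 80501 and 220340 in LLC. Its responses were 1.63 (3.09-fold) and 1.64 (3.12-fold), the smallest among the 7 called genes. They were 0.02 apart between the lines; under quantile normalization and normexp those of Tap2 were closer (−0.03 and −0.02) than those of B2m (−0.23 and −0.25). Although small beside the others, this response ranked 258 of 13255 genes in AB1-HA and 252 of 13426 in LLC.

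The 3 folding factors behaved differently. Calr (calreticulin), the lectin chaperone of the loading complex, read 32865 and 38038 in AB1-HA and 18367 and 17868 in LLC. After scaling its difference was 0.17 in AB1-HA and 0.15 in LLC. Canx (calnexin), which holds new heavy chains before B2m joins, read 30471 and 30149 in AB1-HA and 45145 and 32444 in LLC, with differences of −0.06 and −0.29. The sign for Canx in AB1-HA turned under loess normalization (0.04). Pdia3, the thiol oxidoreductase bound to tapasin, read 13194 and 14202 in AB1-HA and 22978 and 18495 in LLC, with differences of 0.07 and −0.12.

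**Figure D2:**
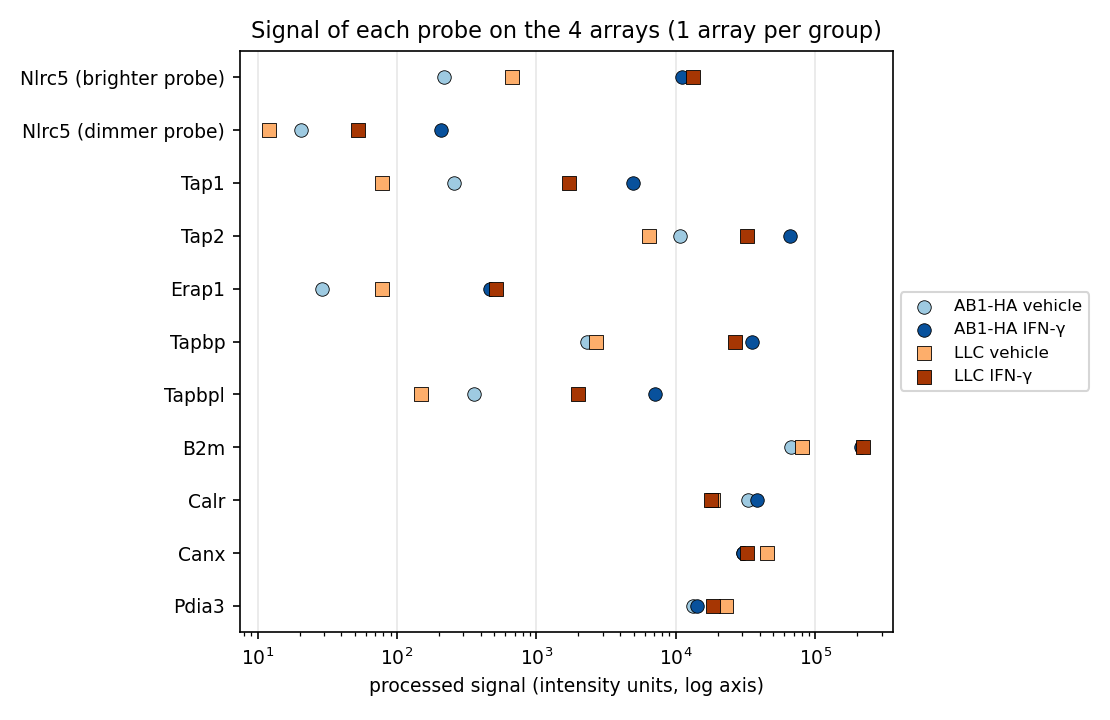
Processed signal of each probe in intensity units on a log axis, 1 point per array, with circles for AB1-HA and squares for LLC, pale for vehicle and dark for IFN-γ. For Nlrc5 (each probe on its own), Tap1, Tap2, Erap1, Tapbp, Tapbpl and B2m both dark symbols lie to the right of both pale ones, whereas those of Calr, Canx and Pdia3 do not. Levels of different probes are not comparable.

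**Figure D3:**
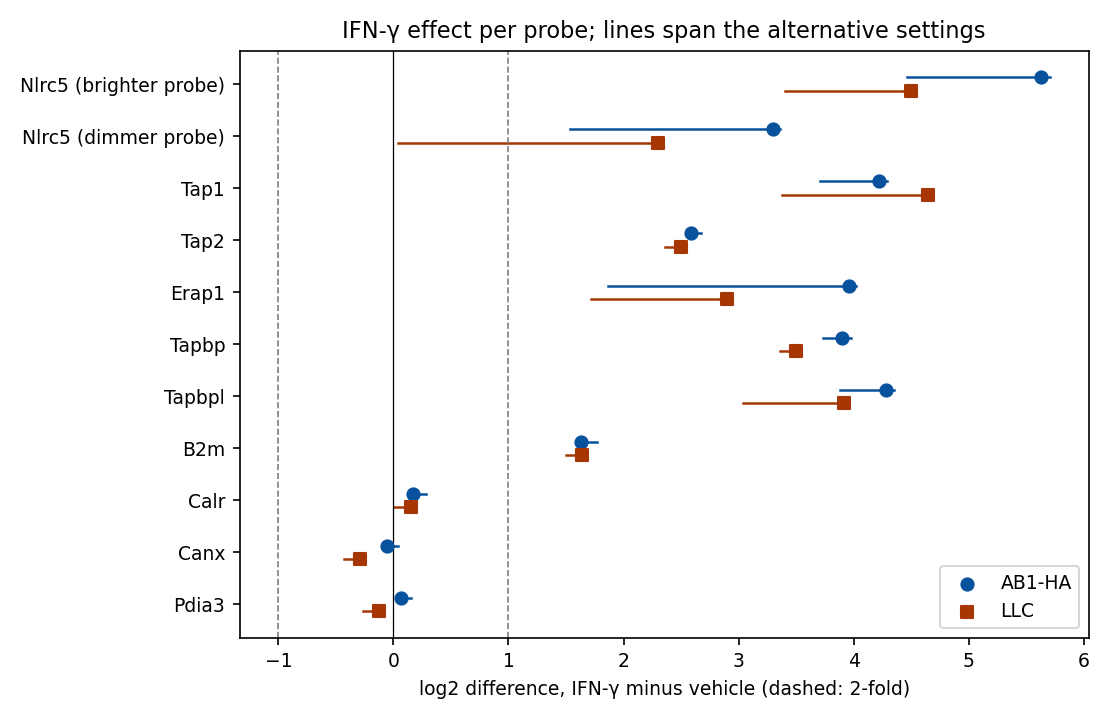
Log2 difference between the IFN-γ and vehicle array of each line, relative to the 75th percentile, for each probe; horizontal lines span the values under the alternative settings, dashed lines mark 2-fold, and the low end for the brighter Nlrc5 probe is the mean over both probes. Apart from the dimmer Nlrc5 probe in LLC, which fell to 0.04 under normexp, every line of Nlrc5, Tap1, Tap2, Erap1, Tapbp, Tapbpl and B2m stays beyond 2-fold.

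Without IFN-γ, the lines differed in 5 of the 10 genes, in both directions. LLC vehicle was at least 2-fold above AB1-HA vehicle for 2 members, where 16.4% of all genes were called higher. These were Nlrc5 (1.42 by the brighter probe, 2.68-fold) and Erap1 (1.21, 2.31-fold). LLC vehicle was at least 2-fold below for 3, Tap1 (−1.91, 3.76-fold), Tapbpl (−1.46, 2.75-fold) and Calr (−1.05, 2.07-fold), where 16% of all genes were called lower. Tap2 lay just inside 2-fold at −0.95. B2m (0.06) and Tapbp (0.01) were level between the lines, and Canx (0.36) and Pdia3 (0.59) were somewhat higher in LLC. These shares are those of 2 unlike lines, so a 2-fold difference here is common among all genes.

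Several of these differences sat close to 2-fold and depended on the scaling. Calr was −0.87 under quantile, −0.91 under loess and −0.88 under normexp. Under normexp Tapbpl was −0.92 and Erap1 0.33. B2m, level above, was 0.37 under quantile and under normexp. The higher Nlrc5 level in LLC rests on the brighter probe, since the dimmer probe gave −0.97 and the mean of both 0.23. Tap1 stayed past 2-fold under each of the 9 alternatives.

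With IFN-γ, LLC was at least 2-fold below AB1-HA for 4 members, Tapbpl (−1.82, 3.54-fold), Tap1 (−1.48, 2.80-fold), Calr (−1.07, 2.10-fold) and Tap2 (−1.03, 2.04-fold), where 13.3% of all genes were called lower. No member was called higher, where 15.4% of all genes were. Nlrc5 by its brighter probe (0.30), Erap1 (0.15), B2m (0.07), Canx (0.13), Pdia3 (0.40) and Tapbp (−0.38) were within 2-fold. The dimmer Nlrc5 probe gave −1.97, and the mean of both Nlrc5 probes −0.84, so the lines' order for treated Nlrc5 is not settled by these arrays. Tap2 was −0.90 under quantile and −0.87 under normexp, and Calr −0.96 under quantile.

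**Figure D4:**
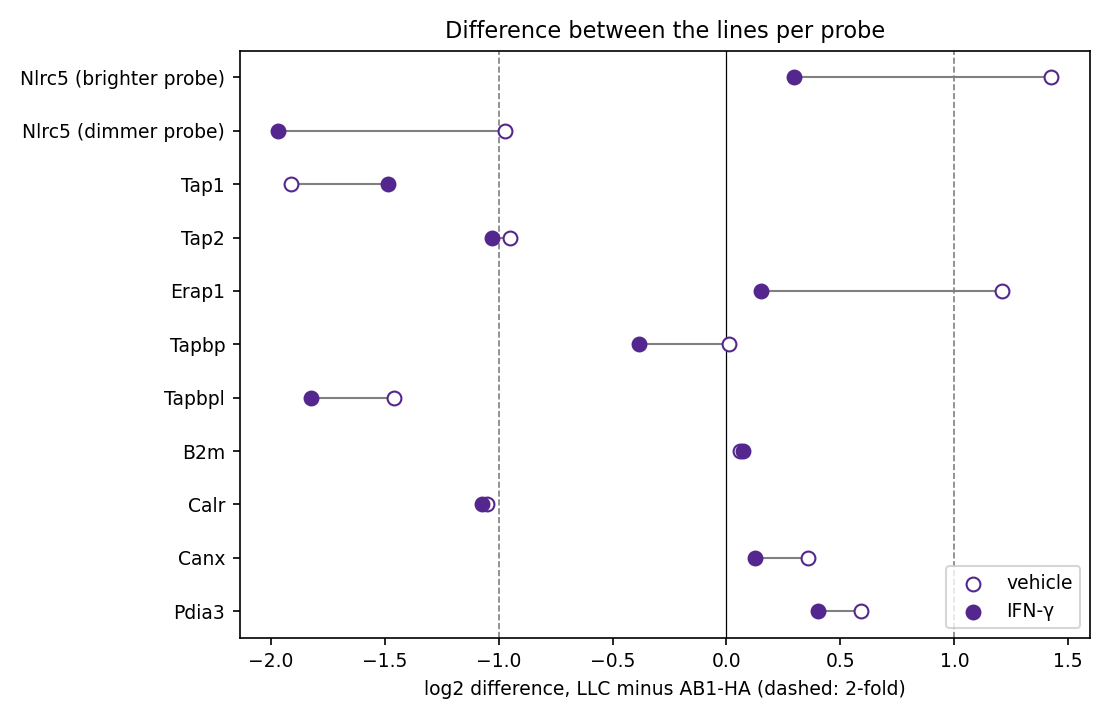
Log2 difference between LLC and AB1-HA for each probe, with open circles for the vehicle arrays and filled circles for the IFN-γ arrays; dashed lines mark 2-fold. Tap1, Tapbpl and Calr lie beyond 2-fold toward AB1-HA in both treatments, and Nlrc5 (brighter probe) and Erap1 lie beyond 2-fold toward LLC with vehicle only.

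The response itself was at least 2-fold apart between the lines for 2 members, both with the larger response in AB1-HA: Nlrc5 (difference of the log2 responses −1.13 by the brighter probe and −0.996, just inside 2-fold, by the dimmer) and Erap1 (−1.06). Among all genes 4.23% were called apart (507 of 11985). For both genes the vehicle level in AB1-HA was the lower one by the probe used, and the treated levels were within 2-fold. Under normexp the call of Erap1 ended (−0.15), as did that of Nlrc5 by its brighter probe (−0.65). The dimmer Nlrc5 probe was past 2-fold there (−1.49), and also under median scaling (−1.13), quantile (−1.20) and loess (−1.27). The other 8 differed by less than 2-fold, from −0.39 for Tapbp and −0.36 for Tapbpl, over −0.02 for Calr and 0.02 for B2m, to 0.43 for Tap1. The sign turned for Tap1 under normexp (−0.33), and for B2m under median scaling (−0.12), quantile (−0.23), loess (−0.15) and normexp (−0.25). These differences share arrays with the comparisons above and were not tested.

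3 orders of the 4 arrays covered the 7 called genes. A call in both lines already puts the treated array of each line above its vehicle array, which leaves few possible orders. The number of orders is therefore a description only, and their shares over all genes were not computed. Tap1, Tap2 and Tapbpl, with the dimmer Nlrc5 probe, ran from LLC vehicle over AB1-HA vehicle and LLC IFN-γ to AB1-HA IFN-γ. B2m, Erap1 and the brighter Nlrc5 probe ran from AB1-HA vehicle over LLC vehicle and AB1-HA IFN-γ to LLC IFN-γ, although the treated neighbours differed by only 0.07, 0.15 and 0.30, and those of B2m changed places under array median scaling (−0.06). Tapbp ran from AB1-HA vehicle and LLC vehicle, which were 0.01 apart, over LLC IFN-γ to AB1-HA IFN-γ.

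Likeness between genes was measured as the Euclidean distance between their log2 values over the 4 arrays, each gene centred on its own mean, among 11975 other genes well above background on all arrays. Nearest to Nlrc5 were Ly6a (0.53), C4b (0.57), Gbp6 (0.60), Parp14 (0.95) and Irf1 (1.05), which encode a surface antigen, a complement component, a guanylate-binding protein, an ADP-ribosyltransferase and an interferon regulatory factor. The nearest fellow member was Erap1, at 1.65. Nearest to Tap1 were Mndal (0.43), Oas3 (0.45), LOC547349 (0.97), Ube2l6 (0.98) and Trim12c (1.08), with the member Tapbpl at 0.52. Nearest to B2m were Itpka (0.23), Car7 (0.28), Mlkl (0.29), Prune2 (0.30) and Mitd1 (0.35), with Tap2 as the nearest member at 1.39. With 4 points a gene, such a distance is a description only.

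The genes next to the members on the chromosome were looked at as well, 3 on each side. Apart from the Psmb and Tap run on chromosome 17, the neighbours called higher under IFN-γ in AB1-HA were Trim69 beside B2m and the class II genes H2-DMb1 and H2-Ab1, each not well above background on the AB1-HA vehicle array and so a bound. In LLC those called higher were Trim69 (1.95) and, as a bound, H2-Ab1. The neighbours of Tapbp, Tapbpl, Erap1, Calr, Canx, Pdia3 and Nlrc5 measured on both arrays of a line were within 2-fold in that line. Ell3 beside Pdia3 was not well above background on the treated LLC array, and its difference there had only a bound, −0.99 or lower.

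The proteins that the loading machinery serves were followed through a fixed list of class I heavy chains. In AB1-HA, 10 of 13 with a value were called higher and 0 lower (median 2.15), and in LLC 11 of 12 were called higher and 0 lower (median 2.65). Among all genes 2.97% and 3.68% were called higher. In AB1-HA the largest were H2-T24 (3.86), H2-T10 (3.40) and H2-Q10 (3.04), and in LLC H2-Q8 (3.90), H2-Q10 (2.90) and H2-T23 (2.88). The smallest were H2-Q4 (0.24) and H2-Q1 (−0.38) in AB1-HA, and H2-Q4 (0.13) and H2-T24 (1.18) in LLC. H2 genes are near copies of one another and differ between the strains, so a probe may read several of them, or match them less well in 1 line.

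B2m also pairs with class I-like proteins outside peptide presentation. In AB1-HA, Hfe, a regulator of iron uptake, was 3.15 higher and Mr1, which presents vitamin metabolites, 1.32 higher, while Fcgrt, the neonatal Fc receptor, was at 0.14. In LLC none of 4 was called (median −0.22), with Mr1 at −0.37 and the lipid-presenting Cd1d1 at −0.07. Among all genes 2.97% were called higher in AB1-HA, and 5.14% were called in either direction in LLC. At such a share few calls would be found in a list of this size, so the absence of calls in LLC says little. All 4 partners were at least 2-fold higher in LLC than in AB1-HA with vehicle, Cd1d1 as a bound, where 16.4% of all genes were called higher. B2m itself was within 2-fold between these arrays (0.06, and 0.37 under quantile).

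For the supply of peptides, 5 of 18 proteasome and peptidase genes were called higher in each line and 0 lower, against 2.97% (AB1-HA) and 3.68% (LLC) of all genes called higher. The largest were the immunoproteasome catalytic subunits Psmb9, Psmb8 (both above) and Psmb10 (3.93 in AB1-HA and 3.96 in LLC). The remaining 2 called, looked up after their values were seen, were the proteasome activator genes Psme1 (2.52 and 2.19) and Psme2 (2.16 and 2.77). The standard subunits Psmb7 (0.02) and Psmb6 (0.03) were the smallest in AB1-HA, and Psme4 (−0.03) and the peptidase Thop1 (−0.05) in LLC. The median was −0.01 in AB1-HA and 0.30 in LLC.

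Of the other folding factors of the endoplasmic reticulum, 0 of 17 with a value were called in either direction in AB1-HA (median −0.04) and 0 of 18 in LLC (median −0.14). Among all genes 4.13% were called in either direction in AB1-HA and 5.14% in LLC, so few calls would be found in lists of this size. Dnajb11, a co-chaperone, was at 0.00 in each line. Of the TAP relatives in the ABCB family, 0 of 8 were called in each line (medians −0.05 and −0.12), with Abcb9, the closest relative of the transporter, at −0.02 in AB1-HA and 0.08 in LLC. Of genes for the surface turnover of class I molecules, 0 of 12 were called in AB1-HA and 0 of 9 in LLC (median −0.04 in each).

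Among factors that act on class I promoters, 4 of 17 with a value were called higher in AB1-HA and 4 of 18 in LLC, and 0 lower. Over all genes the shares called higher were 2.97% and 3.68%. Irf1, which binds interferon response elements, was 4.44 and 4.43 higher, Stat2 3.82 and 3.13, and Irf9 2.53 and 3.23. By its other probe, not well above background on the vehicle arrays, Irf1 was at least 3.23 higher in AB1-HA and 1.71 in LLC. The fourth, looked up after its value was seen, was Rfx5, a subunit of the X-box complex, in AB1-HA (1.89, with 0.25 by its other probe), and Irf8 in LLC (2.02). The called Rfx5 probe was near the floor in AB1-HA, at 8.55 with vehicle and 32.5 with IFN-γ. The lowest well-above-background signal on that vehicle array was 8.26. Rfx5 was at −0.01 in LLC, and the NF-Y subunit Nfyb and Nfkb1 were the smallest in AB1-HA (−0.02 and −0.05). Of the other NLR genes, 2 of 10 were called higher in AB1-HA, Nod1 (4.04) and Naip6 (1.23), and 1 of 9 in LLC, Nod1 (3.71). Nlrc3, a close relative of Nlrc5, was at −0.01 and 0.07.

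**Figure D5:**
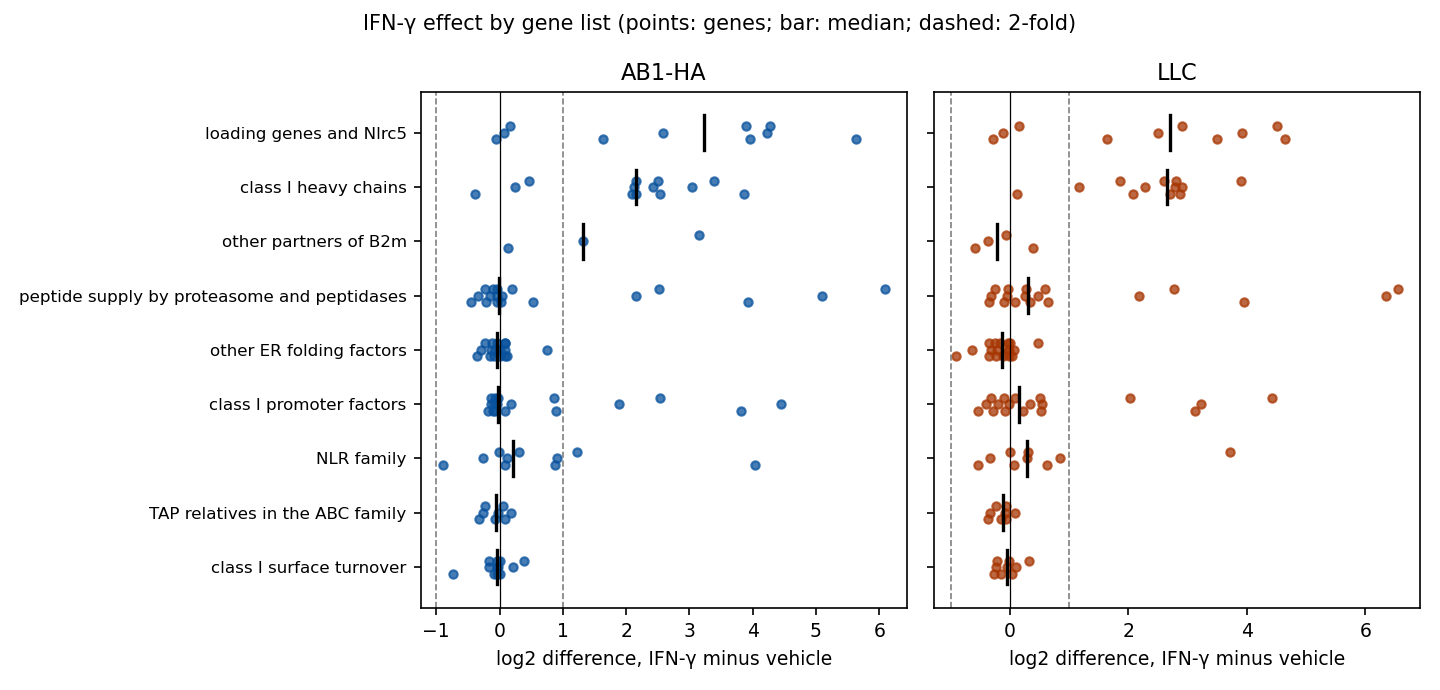
Log2 difference between the IFN-γ and vehicle arrays for each gene of the members' list and 8 further lists, in AB1-HA (left) and LLC (right); points are genes, bars are medians, and dashed lines mark 2-fold. Most points of the loading genes and the heavy chains lie beyond 2-fold, while in peptide supply and promoter factors a few genes do and the median stays near 0.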

How the data were processed

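Total RNA of 4 samples, 1 per group, was labelled with Cy3 and hybridised to 4 arrays of 1 slide, per the labels' protocols and the file headers. The deposited files hold intensity as read by the scanner software, Agilent Feature Extraction 10.7.1.1 per the file headers, with local background removed and no step that makes arrays alike. The median spot and background intensities, used only for normexp, come from the same deposited scanner output. The authors also deposited log2 values, with no account of their making in the labels; they correlated at 0.999 with the scanner's log2 signals scaled to the 75th percentile and centred per probe, with column medians of −0.13 to 0.11, in the same direction. The labels do not say whether several cultures went into 1 sample.

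Spots with outlier marks were left out (166 to 201 an array), spots of a probe were averaged, and each array's 75th percentile was subtracted on the log2 scale. A probe was well above background where the scanner had marked a share of 0.5 or more of the spots kept. Probes were named by accession through a RefSeq table of GRCm38.p6, used for names and gene order since the array annotation is of mm9: 26581 of 39429 were named and 12848 were not. The brightest probe stood for a gene with several. Genes dim on 1 of 2 arrays were given a bound, and those dim on both no value. Genes were called at 2-fold, with no test.

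The members and lists were chosen with earlier results of these data known. Named were all members by every probe, from each list up to 3 of the largest differences past 2-fold and the 2 smallest in each line, and the 5 genes nearest in pattern to Nlrc5, Tap1 and B2m. Endothelial markers, listed as well, were above background for 2 or 3 of 6 on each array, with Cdh5, Tek and Emcn on none. Alternatives tried were median scaling, quantile or loess normalization, normexp (offset 50, on median spot signals, quantile normalized), the authors' value table, a stricter and no background filter, outlier spots kept, and the mean over a gene's probes. Scripts were tested on simulated data. Python 3.11.15, numpy 2.4.6, pandas 2.3.3, matplotlib 3.10.9, R 4.3.3 and limma 3.58.1 were used.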

Additional observations from a re-analysis of the deposited data

Results flagged for a closer look

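Pdia3, the oxidoreductase of the loading complex, was flagged because its small IFN-γ differences had opposite signs in the lines, 0.07 in AB1-HA and −0.12 in LLC. The response in LLC minus that in AB1-HA was −0.19 on the log2 scale, and this difference was not tested. It was not unusual in size, at rank 8918 of 11985 genes from the highest. Canx (−0.23), Tapbpl (−0.36) and Tapbp (−0.39), among other members, were lower still.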

How the results depend on the processing

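The count of 7 members at least 2-fold higher under IFN-γ held in both lines under the 9 alternatives. Not all of these could change it. Every member probe was well above background on every array, so the stricter and absent background filters had to return the same member values. The mean over probes could move Nlrc5 alone. No member spot carried an outlier mark, so keeping outlier spots could act on members only through the scaling. The authors' values, correlated at 0.999 with the scaled signals, could hardly move them either. Of 450 recomputed member differences, 439 stayed on the same side of 2-fold, 11 lost the call, and 0 of those called in the report reversed. Many of the 450 could thus not move, and the 11 came from quantile, loess, normexp and the mean over the Nlrc5 probes. Among differences within 2-fold, the sign turned under some alternative for B2m, Tap1, Canx and Nlrc5. Under normexp, by the brightest probe of each gene, 0 members had responses at least 2-fold apart (2 in the report), and 2 differed between the vehicle arrays (5 in the report). Calls fell over all genes as well. Of 11985 genes, those with the larger response in LLC went from 304 to 102, and those with the smaller from 203 to 103. Of 13872 genes, those lower in LLC with vehicle went from 2216 to 1240. Under quantile normalization, 2 members differed between the IFN-γ arrays (4 in the report). The cause was not tested. Over all genes, calls higher under IFN-γ ran up to 722 in AB1-HA and 890 in LLC with no background filter, and 230 in LLC under normexp; calls lower fell from 154 to 19 in AB1-HA and from 196 to 27 in LLC under normexp. With no background filter the lower calls were 588 and 487, and in LLC 325 with array median scaling and 327 under loess. The share higher among called genes in LLC, 71.6%, was 55.5% with array median scaling, 60.5% under quantile, 55.7% under loess and 89.5% under normexp, and in AB1-HA 71.9% became 93.4% under normexp. Among genes whose responses differed, the share toward LLC was 59.96% in the report's setting and 39.9%, 47.9%, 36.0% and 49.8% under these 4. Array median scaling shifted the median of all genes by −0.14 in LLC and −0.14 for the responses. No paired analysis was possible because each group held 1 array. Vehicle signals were low for Erap1, for the dimmer Nlrc5 probe and, in LLC, for Tap1 (78.6, beside 77.9 for Erap1). Under normexp the LLC response fell from 4.65 to 3.38 for Tap1 and from 2.90 to 1.71 for Erap1. For the dimmer Nlrc5 probe it fell from 2.30 to 0.04. Fold changes that start from such low signals are less certain, and the cause of these falls was not tested.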

Other observations

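Among 12 class I heavy chain genes with a value on all arrays, the responses of 2 were at least 2-fold apart between the lines. Among all genes 4.23% were called apart (507 of 11985). The 2 are named because of their values, and both had low vehicle signals. H2-T24 read 24.8 and 372 intensity units in AB1-HA (vehicle, IFN-γ) and 25.5 and 50.5 in LLC. By its other probe, not well above background on the vehicle arrays, it was at least 3.75 higher in AB1-HA and 0.84 in LLC. H2-Q8 read 45.2 and 64.2 in AB1-HA and 37.8 and 494 in LLC, the opposite pattern. The match of each probe to the 2 strains was not tested.

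Hfe, an iron regulator that pairs with B2m, read 240.02 and 2191 in AB1-HA and 614 and 709.5 in LLC, so the higher vehicle level was in LLC and the higher treated level in AB1-HA. Mr1 read 47.4 and 122 in AB1-HA and 334.5 and 226.5 in LLC. Cd1d1 read 592 and 495 in LLC and was not well above background on the AB1-HA arrays. Irf8, a regulator typical of blood cells, read 1296 and 4620.3 in LLC and was not well above background in AB1-HA.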
